A study of Homo sapiens with 8 samples.

Results

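The genes described here are 54 DNA replication licensing and fork genes, taken by symbol from the 57169 rows of the deposited count table. The list was drawn up by function with earlier results of these data known, and its genes fall into 13 roles that run from origin recognition to chromatin assembly behind the fork. RNA was sequenced from HCT116, a line from a primary colorectal carcinoma, and SW620, a line from a lymph node metastasis of a colorectal carcinoma. Each line was treated for 24 h with AFZC, which per the series title is a metal-organic framework nanodrug that carries 5-fluorouracil and an aptamer, or with free 5-FU, the thymidylate synthase inhibitor. All 4 groups (HCT116 under AFZC, HCT116 under 5-FU, SW620 under AFZC and SW620 under 5-FU) held 2 libraries, and the doses were the IC50 of each agent in each line. The sources used here give no concentrations, and untreated cells and cells given the empty carrier were not analysed here, so every group had received 5-FU in some form and every difference between agents is AFZC relative to 5-FU.

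Origins of replication are licensed in G1 phase, when the origin recognition complex, CDC6 and CDT1 load the MCM2-7 helicase onto DNA, and geminin later blocks CDT1 so that no origin is licensed again in the same cycle. In S phase the DBF4-dependent kinase CDC7, CDC45 and the GINS complex turn the loaded helicase into an active one, and polymerases alpha, delta and epsilon copy the strands with the PCNA clamp, its RFC loader and the single-strand binding protein RPA. Many of these genes are transcribed at the border of G1 and S phase under E2F factors, and their transcripts are abundant in proliferating colorectal tumour cells.

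Total counts ran from 31991561 to 40590291 per library, and a member had between 97 and 16076 counts in a library. All 54 members passed the filter on low counts, as did 21378 genes of the table. The labels do not state whether paired libraries of 1 group are separate cultures or 1 culture prepared again, and p-values therefore reflect a spread that could be technical. The epithelial adhesion gene EPCAM was read at 463 to 658 CPM (counts per 1000000, TMM-scaled) in SW620 and at 259 to 341 CPM in HCT116, and PTPRC, which marks leukocytes, at 0 to 0.0689 CPM in all 8 libraries. In bulk RNA, fewer cells in S phase and less RNA per cell cannot be told apart.

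The promoters of these genes are shown first because E2F sites are the feature that they are best known to share. Windows from 250 bases before to 50 bases after the RefSeq start (GRCh38.p14) were found by symbol for 46 of the 54 members, and not for MCM4, MCM5, GINS4, POLD3, DSCC1, RPA2, RPA3 and DNA2. They were searched on both strands for TTTNNCGC (E2F), TTTGAA (the CHR element of G2 and M phase genes) and CCAAT. The E2F and CHR letters both begin with TTT, and matches of different motifs were allowed to overlap. The E2F letters were found in 23 of the 46 windows, a share of 50%, against 6.89% of all 35116 promoter windows in the table. CCAAT was found in 56.5% of the members' windows and 34.6% of all windows, and CHR in 2.17% (1 window, that of DBF4) and 15.2%. The members' shares count 1 window per gene, while the other shares count every window in the table. Base composition was not matched in these shares, and a match is a run of letters and no evidence of binding. For each of 6 roles, 1 window is printed below, 30 bases of the gene's own strand from 5′ to 3′, with the E2F letters or their reverse complement in capitals. The stretches of CDT1, GINS2 and POLE2 lie in an exon of the deposited gene model, and the other 3 lie outside it.
ORC6, chr16:46689525-46689554, plus strand: ttgatgcgcatGCGCAAAAggaagaccctg
CDT1, chr16:88803743-88803772, plus strand: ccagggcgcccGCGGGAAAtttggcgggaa
MCM6, chr2:135876511-135876540, minus strand: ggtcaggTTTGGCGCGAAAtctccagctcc
GINS2, chr16:85688967-85688996, minus strand: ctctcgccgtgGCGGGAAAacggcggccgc
POLA1, chrX:24693770-24693799, plus strand: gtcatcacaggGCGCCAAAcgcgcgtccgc
POLE2, chr14:49688277-49688306, minus strand: tcttaacagggTTTAGCGCcacgcgggcca
In MCM6 the capitals hold 2 overlapping matches, 1 on each strand.

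In SW620 the replication genes were higher under AFZC than under 5-FU as a nearly complete set. Of the 54 members, 49 were called higher (adjusted p under 0.05 in edgeR's quasi-likelihood test) and 0 lower, where 11.6% and 6.95% of all genes tested were called higher and lower. None was lower at an unadjusted p under 0.05 or with DESeq2 either, with 0 of 54 by both. At least a doubling was fitted for 41 of the 49. The median log2 fold change was 1.68, against 0.03 over all genes tested, and single members ran from -0.12 to 2.84. In 50 members both AFZC libraries lay above both 5-FU libraries and in 1 both lay below, where 31.5% and 28.4% of all genes separated in those directions. The 54 genes together took 0.504% and 0.473% of the counts in the AFZC libraries, against 0.155% and 0.134% in the 5-FU libraries.

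In HCT116 the same genes had no common direction. PCNA was called higher under AFZC, MCM6 and MCM7 were called lower, and 51 members were not called, where 5.87% of all genes were called higher and 3.74% lower. The median log2 fold change of the members was 0.02, against 0.00 over all genes, and the range was -0.86 to 1.24. The libraries of the agents separated upward in 14 members and downward in 15, against 28.1% and 27.4% of all genes. The members' share of all counts was 0.340% and 0.366% in the AFZC libraries and 0.347% and 0.352% in the 5-FU libraries, so the groups overlapped.

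**Figure D1:**
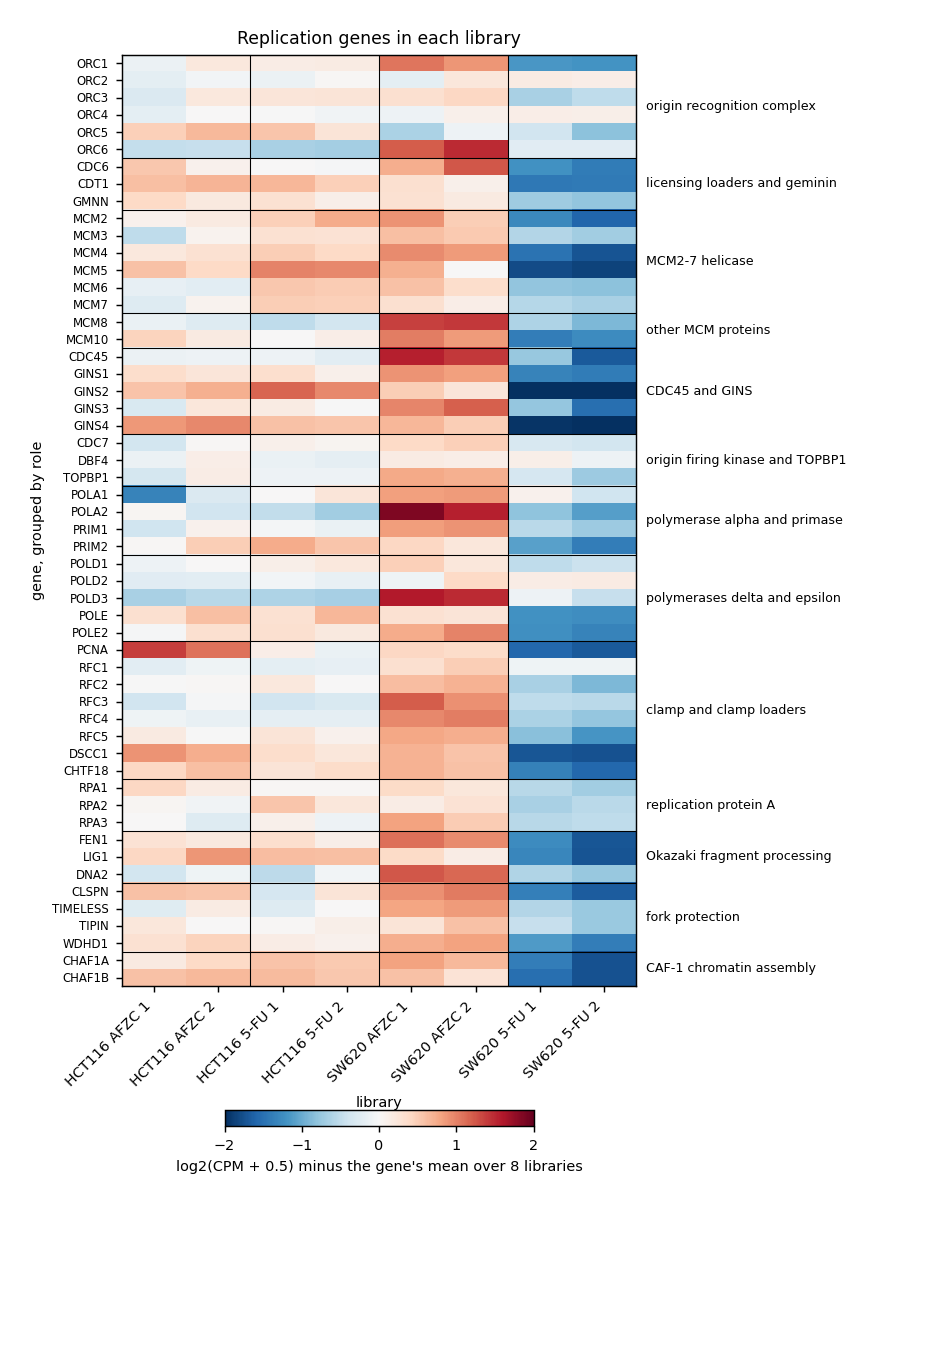
Heat map of log2(CPM + 0.5) minus each gene's mean over the 8 libraries, with 54 genes down the page in 13 roles and the libraries across, AFZC left of 5-FU within each line. The 2 SW620 libraries under 5-FU are low for most genes, while HCT116 libraries stay near the mean under both agents apart from PCNA, GINS2 and a few others.

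**Figure D2:**
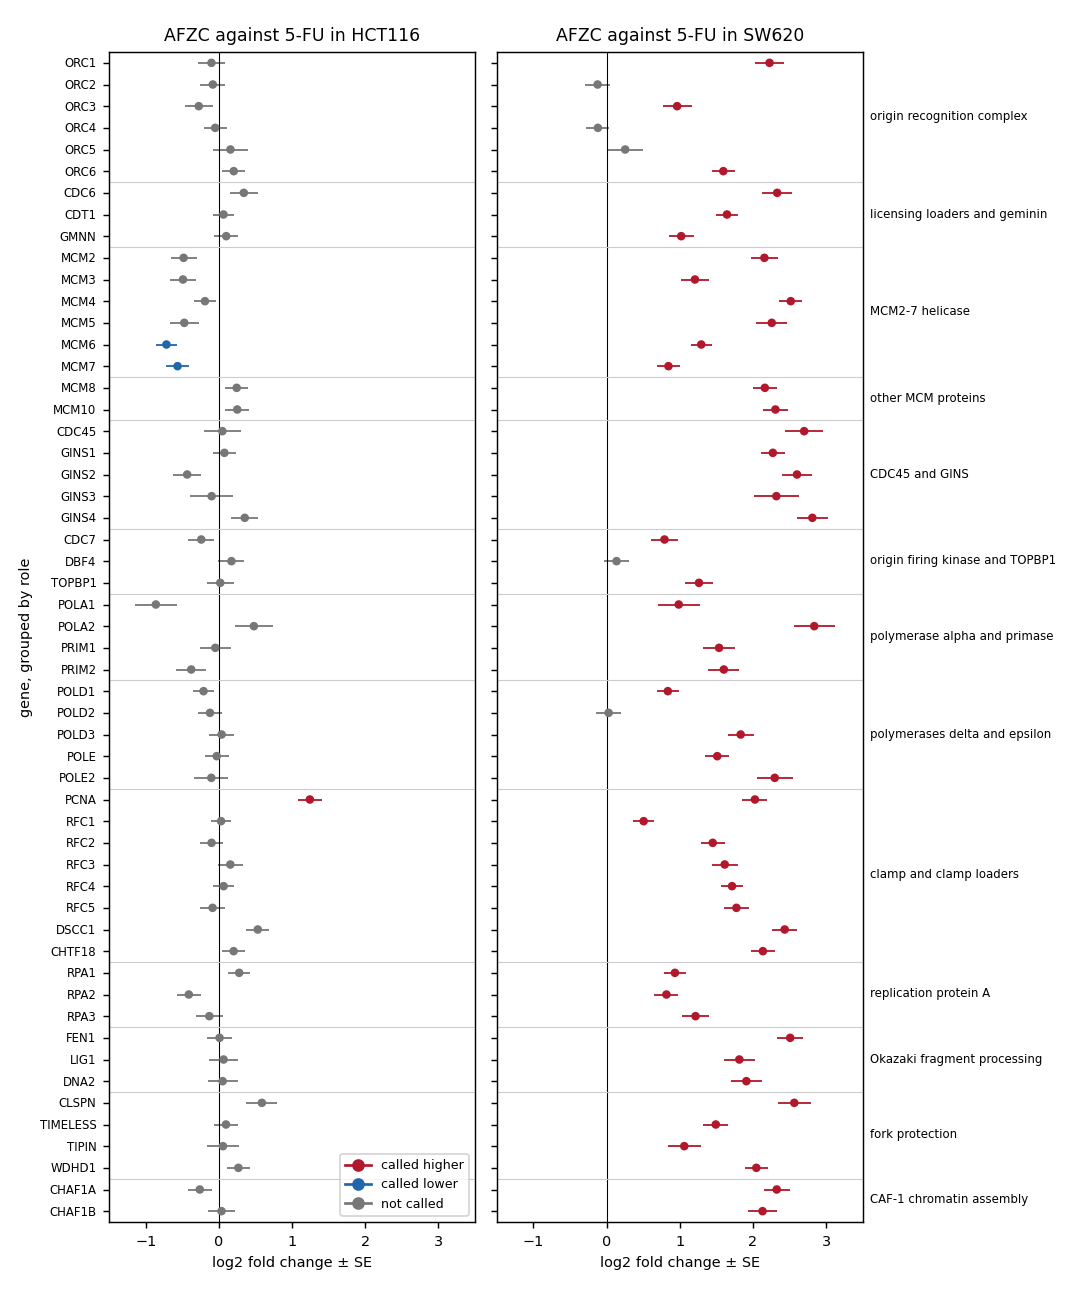
Log2 fold change (AFZC over 5-FU) of each gene with its standard error, HCT116 on the left and SW620 on the right, red where called higher, blue where called lower and grey where not called. In HCT116 most points sit near 0 and the MCM2-7 genes lie below it; in SW620 all but 5 points are red and lie to the right of 0.

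Origin recognition. Of the 6 subunits of the complex that marks origins, 3 were called higher in SW620 under AFZC and 3 were not called. Levels below are per length (CPM per kilobase of the deposited gene length, TMM-scaled), which allows genes to be compared. ORC1, the largest subunit and the one degraded after G1 phase in human cells, had 13.4 and 11.8 CPM per kilobase in the SW620 AFZC libraries, against 2.73 and 2.67 in the 5-FU libraries. Both AFZC libraries were far above both 5-FU libraries, and the fitted log2 fold change was 2.23 ± 0.195 (SE), at an adjusted p = 1.39e-05. ORC6, the smallest subunit, had levels of 21.6 and 26.2 in SW620 under AFZC and of 7.89 and 7.92 under 5-FU, a called log2 difference of 1.59 ± 0.156 (adjusted p = 3.39e-05). ORC3 was also called higher (0.96 ± 0.197, adjusted p = 0.0051).

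The other 3 subunits, which with ORC3 form the body of the complex on DNA, were not called in SW620. ORC2 had levels of 6.95 and 9.32 under AFZC and of 8.97 and 8.76 under 5-FU, so the groups overlapped (log2 fold change -0.12 ± 0.170, adjusted p = 0.668). ORC4 had 4.49 and 5.19 under AFZC against 5.29 and 5.23 under 5-FU, a small separation downward (-0.12 ± 0.156, adjusted p = 0.646), and ORC5 had 2.71 and 4.001 against 3.26 and 2.37 (0.25 ± 0.247, adjusted p = 0.521). With library sizes in place of TMM factors ORC2 and ORC4 turned to 0.25 each, and neither they nor ORC5 were called in any of the 7 other settings or the 8 fits with a library left out. In HCT116 no subunit was called: ORC1 had 5.83 and 7.31 under AFZC and 6.99 and 7.12 under 5-FU (-0.10 ± 0.185, adjusted p = 0.802), and ORC6 had 6.65 and 6.70 against 5.89 and 5.71 (0.20 ± 0.154, adjusted p = 0.465).

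Licensing loaders. All 3 members of this role were higher in SW620 under AFZC, by at least a doubling. CDC6, the ATPase that joins ORC before helicase loading, had levels of 18.3 and 26.2 under AFZC and of 4.71 and 4.13 under 5-FU (log2 fold change 2.33 ± 0.206, adjusted p = 1.46e-05). CDT1, which brings MCM2-7 to the origin and whose promoter holds 2 matches of the E2F letters, had 25.4 and 21.8 under AFZC against 7.51 and 7.56 under 5-FU (1.65 ± 0.152, adjusted p = 2.14e-05). For geminin (GMNN), the inhibitor of CDT1, the values were 15.4 and 14.2 against 7.52 and 7.09 (1.02 ± 0.169, adjusted p = 0.00146). The groups of each of the 3 genes were apart.

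The fitted change of the inhibitor was smaller than that of its target in SW620, a difference between genes that was not tested. Within a library, the per-length ratio of CDT1 to GMNN was 1.64 and 1.54 in SW620 under AFZC and 0.999 and 1.07 under 5-FU. In HCT116 this ratio was 1.87 and 2.29 under AFZC and 2.11 and 2.13 under 5-FU, and the groups overlapped. None of the 3 genes was called in HCT116, where CDC6 had 16.0 and 11.7 under AFZC and 11.1 and 10.8 under 5-FU (0.34 ± 0.195, adjusted p = 0.313). CDT1 stood at 31.0 and 32.8 against 32.4 and 28.6 (0.06 ± 0.147, adjusted p = 0.856), and GMNN at 16.5 and 14.3 against 15.3 and 13.4 (0.10 ± 0.166, adjusted p = 0.782), with overlap in both.

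The MCM2-7 helicase. The 6 genes of the replicative helicase had fold changes of opposite sign in the 2 lines, and for all 6 the difference between the lines was called. In HCT116 each of them was lower in both AFZC libraries than in both 5-FU libraries, with a median log2 fold change of -0.49, but only 2 were called. Of all genes tested in that line, 27.4% separated downward in this way and 3.74% were called lower. The promoter window of MCM6 (chromosome 2, 135839626 to 135876426, minus strand, GRCh38) held 4 matches of the E2F letters, overlapping in pairs on opposite strands. MCM6 had levels of 18.9 and 18.4 under AFZC against 30.9 and 30.5 under 5-FU, and fell by 0.72 on the log2 scale (SE 0.143, adjusted p = 0.00851). MCM7 (chromosome 7, 100092728 to 100101940, minus strand) had 37.5 and 47.1 against 62.9 and 62.4 and fell by 0.57 (SE 0.161, adjusted p = 0.0435).

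These 2 calls rested on few libraries. Without HCT116 5-FU replicate 1 or 2, MCM6 kept its size (-0.71 and -0.75) with adjusted p = 0.0864 and 0.0535. The MCM7 call was lost without HCT116 5-FU replicate 1 (adjusted p = 0.217) or 2 (0.149), HCT116 AFZC replicate 1 (0.271), and SW620 5-FU replicate 1 (0.0728) or 2 (0.0734), with library sizes only (0.0622), and with the replicate block (0.0589). The subunits not called were MCM2, with 13.9 and 14.8 against 18.3 and 21.8 (-0.48 ± 0.177, adjusted p = 0.108), and MCM5, with 11.3 and 9.87 against 14.8 and 14.5 (-0.47 ± 0.198, adjusted p = 0.156). MCM3 (-0.49) and MCM4 (-0.19) completed the set. With no filter on low counts MCM2 and MCM3 were called lower as well (adjusted p = 0.0457 and 0.0332), as were MCM3 without HCT116 AFZC replicate 2 (0.00868) and MCM5 without SW620 AFZC replicate 1 (0.0379) or 2 (0.0365). The estimates of all 6 stayed below 0 in the 7 other settings, scalings included, and in the 8 fits with a library left out.

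In SW620 all 6 were called higher, with a median of 1.72. The MCM7 call (0.84 ± 0.162, adjusted p = 0.00342) was lost without SW620 5-FU replicate 2 (adjusted p = 0.0507), and the other 5 kept theirs with any library left out. MCM2 had 24.3 and 18.3 under AFZC against 5.29 and 4.27 under 5-FU (2.16 ± 0.185, adjusted p = 1.24e-05). MCM5 had 12.2 and 7.48 against 2.10 and 2.02 (2.26 ± 0.210, adjusted p = 2.27e-05). The largest change was in MCM4, with 42.6 and 40.2 against 7.86 and 6.61 (2.52 ± 0.160, adjusted p = 4.73e-06).

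The complex holds 1 copy of each subunit, while transcript levels per length differed within every library. MCM5 was the lowest of the 6 in all 8 libraries, and MCM7 or MCM3 the highest. The highest was 5.99 and 9.25 times the lowest in SW620 under AFZC and 15.2 and 14.7 times under 5-FU. In HCT116 the ratio was 3.33 and 5.12 under AFZC and 4.24 and 4.29 under 5-FU, with overlap. The deposited gene length counts every annotated exon, so a gene with many alternative exons reads low on this scale.

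MCM8 and MCM10. MCM8, a helicase that is not part of the MCM2-7 ring and acts in recombination, had 15.3 and 15.9 in SW620 under AFZC against 3.83 and 3.12 under 5-FU (2.16 ± 0.162, adjusted p = 7.65e-06). MCM10, which helps to activate the helicase, had 12.7 and 11.2 against 2.30 and 2.52 (2.31 ± 0.173, adjusted p = 7.65e-06). Both genes had AFZC libraries far above the 5-FU libraries. In HCT116 neither was called: MCM10 had 8.49 and 7.05 against 6.26 and 6.81 (0.25 ± 0.164, adjusted p = 0.384).

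**Figure D3:**
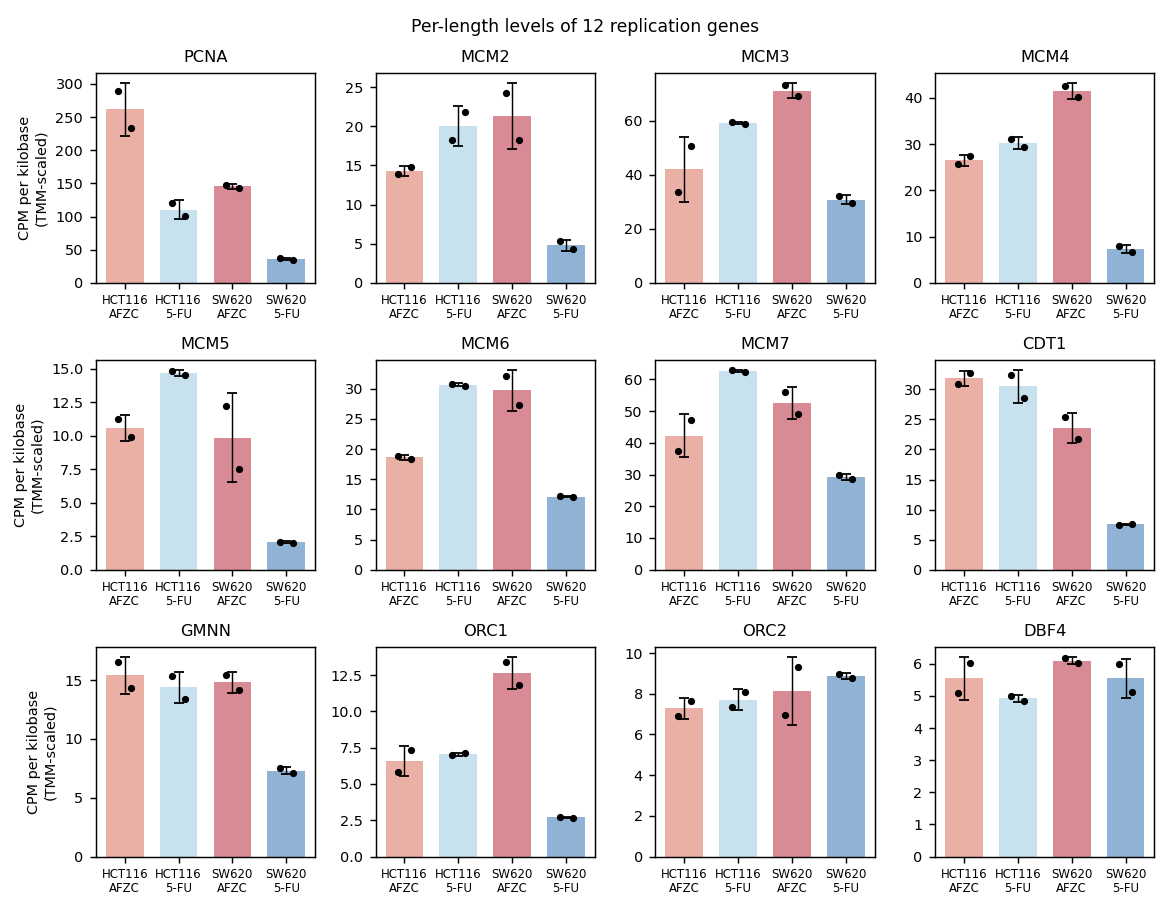
Per-length levels (TMM-scaled CPM per kilobase) of 12 genes in the 4 groups, with bars at the mean of 2 libraries, error bars of 1 SD and points for single libraries. MCM2 to MCM7 are lower under AFZC than under 5-FU in HCT116 and higher in SW620, PCNA is higher under AFZC in both lines, and ORC2 and DBF4 are level.

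CDC45 and GINS, the partners that complete the active helicase, made the role with the highest median in SW620, 2.60, and all 5 were called. CDC45 had 23.1 and 21.0 under AFZC against 4.51 and 2.28 under 5-FU (2.70 ± 0.264, adjusted p = 3.39e-05). GINS2 had 6.77 and 5.69 against 1.02 and 1.03 (2.60 ± 0.209, adjusted p = 8.49e-06). GINS4, the largest change of the role, had 4.33 and 3.83 against 0.623 and 0.541 (2.81 ± 0.208, adjusted p = 7.65e-06). In each of these 3 genes the lower AFZC library was over 4 times the higher 5-FU library.

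HCT116 showed no call in this role. CDC45 had 7.12 and 7.16 under AFZC and 7.201 and 6.62 under 5-FU, which overlapped (0.05 ± 0.248, adjusted p = 0.953). GINS2 was lower in both AFZC libraries, with 7.15 and 7.95 against 10.95 and 9.45, short of a call (-0.43 ± 0.189, adjusted p = 0.172). Exons of GINS4 share 23.6% of their bases with other annotated genes, and the libraries did not keep the strand. Its counts may therefore include reads of those genes or lack reads of its own. The same holds for MCM2 (23.6%), POLA2 (35.1%), PRIM1 (21.6%) and TIPIN (21.0%).

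Origin firing. CDC7, the kinase that phosphorylates MCM2-7 at firing, was called higher in SW620, and DBF4, its activating subunit, was not. CDC7 had 10.2 and 10.9 under AFZC against 6.17 and 6.01 under 5-FU (0.79 ± 0.179, adjusted p = 0.00918), a call lost without SW620 5-FU replicate 1 (adjusted p = 0.0538) or 2 (0.0849). DBF4 had 6.17 and 6.02 against 5.98 and 5.12, barely apart (0.14 ± 0.177, adjusted p = 0.649), and was called in no other setting and in no fit with a library left out. TOPBP1, a scaffold of helicase activation and of ATR signalling, was called higher (1.26 ± 0.188, adjusted p = 0.000737).

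The per-length ratio of DBF4 to CDC7 within a library was 0.604 and 0.554 in SW620 under AFZC and 0.970 and 0.852 under 5-FU. HCT116 had the opposite order, 0.846 and 0.764 under AFZC and 0.601 and 0.599 under 5-FU, and the groups were apart in both lines. The ratio was not tested, and groups of 2 libraries are often apart. Levels of single genes separated upward and downward in 28.1% and 27.4% of all genes in HCT116, and in 31.5% and 28.4% in SW620. In HCT116 neither gene was called on its own. CDC7 had 6.01 and 7.88 against 8.31 and 8.10 (-0.24 ± 0.178, adjusted p = 0.447), and DBF4 had 5.08 and 6.02 against 5.00 and 4.85 (0.17 ± 0.177, adjusted p = 0.613).

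Polymerase alpha and primase, which lay down the RNA-DNA primers, held the largest and one of the least stable changes in SW620. POLA2, the accessory subunit, had 4.87 and 3.91 under AFZC against 0.685 and 0.543 under 5-FU (2.84 ± 0.278, adjusted p = 3.39e-05), the largest change of all 54 members, with the shared exon bases given above. PRIM1, the catalytic primase subunit, had 11.8 and 12.3 against 4.44 and 3.86 (1.54 ± 0.220, adjusted p = 0.000564). POLA1, the catalytic polymerase subunit (chromosome X, 24693919 to 24996986, plus strand), had 10.7 and 10.96 against 6.37 and 4.56 (0.99 ± 0.290, adjusted p = 0.0375).

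The POLA1 call did not last in most fits with a library left out. It was lost without HCT116 5-FU replicate 1 (adjusted p = 0.0635) or 2 (0.0632), SW620 5-FU replicate 1 (0.0595) or 2 (0.266), and SW620 AFZC replicate 1 (0.152) or 2 (0.140). In HCT116 POLA1 had the most negative estimate of the 54, with 2.35 and 4.92 under AFZC against 6.05 and 7.15 under 5-FU (-0.86 ± 0.291, adjusted p = 0.0906). Its AFZC libraries lay below both 5-FU libraries but were themselves more than 2-fold apart. DESeq2 called it lower (-0.86, adjusted p = 0.0235), as did the fit with no filter on low counts (-0.88, adjusted p = 0.00012). Without HCT116 AFZC replicate 2, which leaves 1 AFZC library in that line, the estimate was -1.51 and called (adjusted p = 0.000779). PRIM1 in HCT116 overlapped, with 4.91 and 6.94 against 6.34 and 5.92 (-0.05 ± 0.215, adjusted p = 0.935).

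Polymerases delta and epsilon. Of the 5 members of this role, 4 were called higher in SW620. POLE2, a subunit of the leading-strand polymerase epsilon, had 5.85 and 6.99 under AFZC against 1.36 and 1.25 under 5-FU (2.30 ± 0.246, adjusted p = 6.6e-05). POLD1, the catalytic subunit of the lagging-strand polymerase delta, had 16.97 and 14.3 against 8.50 and 9.04 (0.84 ± 0.150, adjusted p = 0.00235). POLD2, its accessory subunit, had 39.0 and 54.6 against 45.7 and 46.1, so the AFZC libraries lay on either side of the 5-FU libraries (0.03 ± 0.169, adjusted p = 0.951).

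POLD2 was called in no other setting and in no fit with a library left out, although with library sizes only its estimate was 0.40. The role therefore spread widely within SW620 under 5-FU, where POLD2, at a mean of 45.9, was the highest of all 54 members and 35.2 times POLE2, the lowest of the role. Under AFZC the same ratio was 7.29. In HCT116 POLD1 had 11.4 and 12.2 against 13.2 and 14.1 (-0.21 ± 0.149, adjusted p = 0.427) and POLE2 had 3.35 and 4.30 against 4.28 and 3.94 (-0.10 ± 0.231, adjusted p = 0.848).

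The sliding clamp. PCNA (chromosome 20, 5114953 to 5126626, minus strand), the ring that tethers polymerases to DNA, was the member called higher in both lines. In HCT116 it had levels of 289.6 and 234 under AFZC against 121 and 100.4 under 5-FU (1.24 ± 0.166, adjusted p = 0.000884). In SW620 it had 148 and 143 against 36.9 and 34.4 (2.03 ± 0.171, adjusted p = 1.06e-05). All AFZC libraries were above all 5-FU libraries of the same line, and both calls held in the 7 other settings and the 8 fits with a library left out, with adjusted p of at most 0.0248 in HCT116. Its promoter window held 1 match of the E2F letters.

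The loaders that open the clamp were called higher in SW620 as a full set, RFC1 to RFC5, DSCC1 and CHTF18. RFC3, a small subunit of the main loader, had 31.3 and 25.4 under AFZC against 9.33 and 9.17 under 5-FU (1.61 ± 0.177, adjusted p = 8.02e-05). DSCC1, of the alternative loader that acts in sister chromatid cohesion, had 17.5 and 16.1 against 3.15 and 3.08 (2.43 ± 0.171, adjusted p = 7.41e-06). RFC1, the large subunit, had the smallest called change of the 49 (0.51 ± 0.141, adjusted p = 0.026), and that call was lost in 3 of the 8 fits with a library left out, with adjusted p = 0.177 at most, without SW620 5-FU replicate 2.

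In HCT116 no loader was called by edgeR on all libraries. RFC3 overlapped, with 10.2 and 13.1 against 10.3 and 10.7 (0.16 ± 0.173, adjusted p = 0.644). DSCC1 came nearest, with 20.2 and 18.0 under AFZC against 13.8 and 12.6 under 5-FU (0.53 ± 0.159, adjusted p = 0.0536), and was called higher by DESeq2 (0.52, adjusted p = 0.0427) and with library sizes only (0.55, adjusted p = 0.0482).

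Replication protein A, Okazaki fragment processing and fork protection were all called higher in SW620, although the fork protection gene TIPIN lost its call without SW620 5-FU replicate 2 (adjusted p = 0.0872). RPA1, the large subunit of the trimer that coats single-stranded DNA, had 40.0 and 35.7 under AFZC against 20.7 and 18.9 under 5-FU (0.93 ± 0.154, adjusted p = 0.00144), and RPA3, the smallest subunit, changed most in the trimer (1.22 ± 0.190, adjusted p = 0.00101). FEN1, the flap nuclease that trims Okazaki fragments, had 70.0 and 62.5 against 13.5 and 9.83 (2.51 ± 0.181, adjusted p = 7.42e-06). LIG1, the ligase that joins them, had 6.64 and 5.66 against 2.02 and 1.48 (1.81 ± 0.208, adjusted p = 0.000114). CLSPN, the claspin adaptor that stabilises forks and activates CHK1, had 7.60 and 8.31 against 1.49 and 1.20 (2.56 ± 0.227, adjusted p = 1.47e-05). The nuclease FEN1 thus stood more than 4 times higher under AFZC, and the RPA trimer about 2 times.

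None of these was called in HCT116. RPA1 was above in both AFZC libraries, with 40.8 and 34.4 against 31.2 and 30.9 (0.28 ± 0.153, adjusted p = 0.293), while FEN1 overlapped, with 39.6 and 37.2 against 41.1 and 35.3 (0.01 ± 0.170, adjusted p = 1). LIG1 had 6.80 and 9.43 against 7.80 and 7.73 (0.06 ± 0.198, adjusted p = 0.9). CLSPN had 5.995 and 5.92 against 3.14 and 4.78, apart but short of a call (0.59 ± 0.212, adjusted p = 0.102).

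CAF-1, which deposits histones H3 and H4 behind the fork, was represented by CHAF1A and CHAF1B, its large and middle subunits. In SW620 CHAF1A had 16.5 and 14.9 under AFZC against 3.53 and 2.72 under 5-FU (2.33 ± 0.178, adjusted p = 7.65e-06) and CHAF1B had 6.57 and 5.28 against 1.47 and 1.23 (2.13 ± 0.193, adjusted p = 1.81e-05). In HCT116 CHAF1A had 10.7 and 12.4 against 14.03 and 13.6, lower in both AFZC libraries but not called (-0.26 ± 0.167, adjusted p = 0.37), and CHAF1B had 6.63 and 6.90 against 6.84 and 6.37, which overlapped (0.04 ± 0.181, adjusted p = 0.95).

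The promoter matches were set beside these changes as a description, with no test. In SW620 all 23 members with the E2F letters were called higher, with a median log2 fold change of 1.77 and a range of 0.51 to 2.84. Of the 23 members whose window lacked them, 18 were called higher, with a median of 1.49 and a range of -0.12 to 2.70. The 5 members not called, ORC2, ORC4, ORC5, DBF4 and POLD2, all had windows in the table, and 0 of them held the letters. CDC45, FEN1 and CHAF1A lacked the letters too and were among the larger changes.

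**Figure D4:**
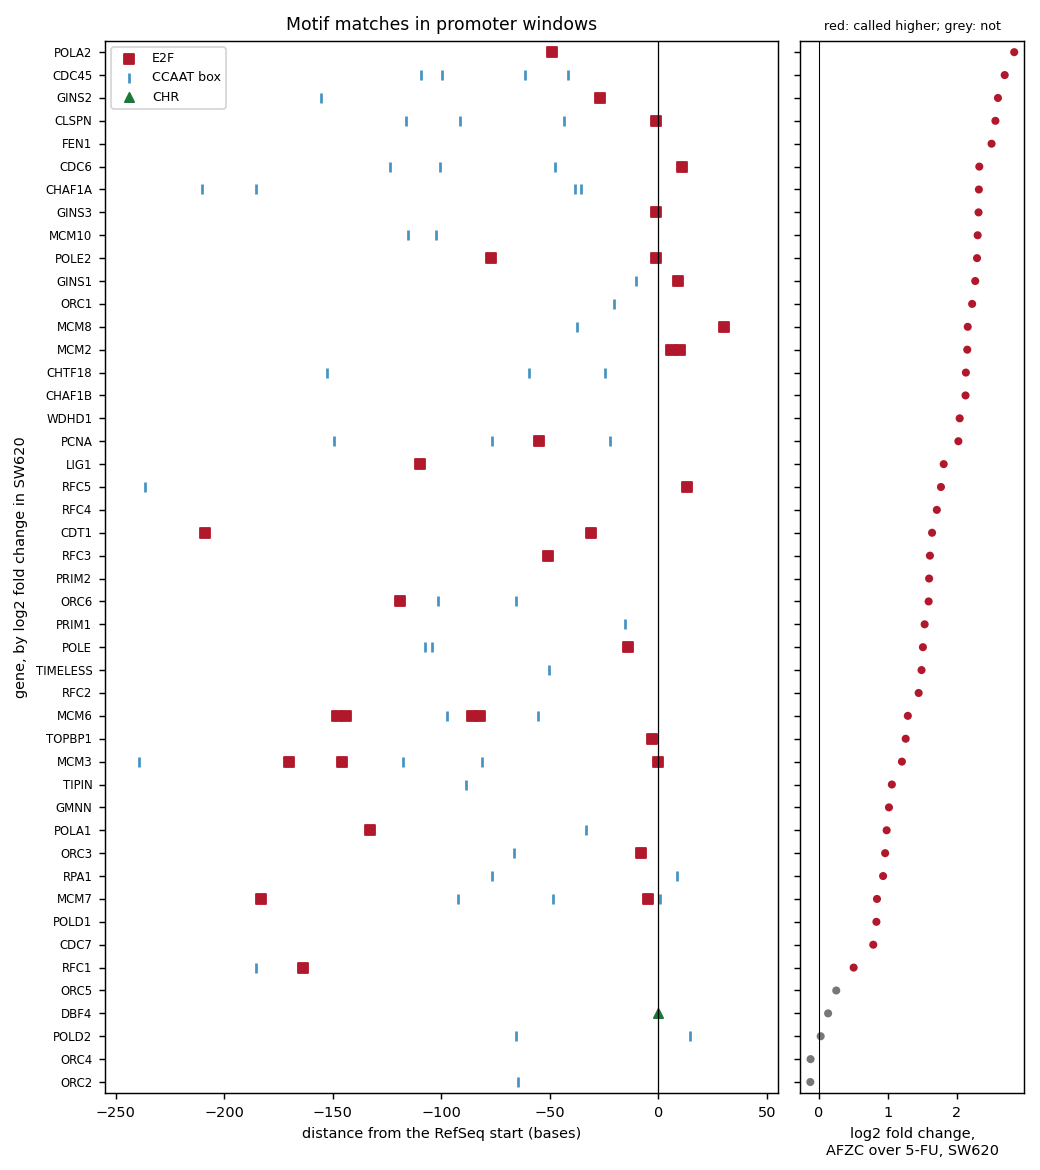
Positions of motif matches in the promoter windows of 46 genes, as distance in bases from the RefSeq start, with genes ordered by log2 fold change (AFZC over 5-FU) in SW620, drawn on the right in red where called higher and in grey where not. E2F matches (red squares) occur from the top of the order down to RFC1 and in none of the 5 genes at the bottom.

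The difference between the lines was tested directly, as the AFZC effect in SW620 minus that in HCT116. It was called above 0 for 45 members and below 0 for 0, where 5.65% and 4.14% of all genes were called above and below; 0 members were below also at an unadjusted p under 0.05 and with DESeq2. The median difference was 1.77 on the log2 scale, against 0.04 over all genes. The 5 largest were GINS2 (3.04 ± 0.280, adjusted p = 0.000102), MCM5 (2.73 ± 0.287, adjusted p = 0.000182), MCM4 (2.71 ± 0.218, adjusted p = 6.97e-05), CDC45 (2.65 ± 0.357, adjusted p = 0.00086) and MCM2 (2.64 ± 0.255, adjusted p = 0.000114). PCNA, called higher in both lines, fell just short of a call (0.78 ± 0.232, adjusted p = 0.051). Its difference was called above 0 with DESeq2 (adjusted p = 0.0188). In edgeR it was called with library sizes only (0.00661), with no filter on low counts (0.0129) and with the replicate block (0.0465). The others not called were ORC2, ORC4, ORC5, DBF4, POLD2, RFC1, RPA1 and TIPIN. Of these, RPA1 and TIPIN were called above 0 with DESeq2 and with library sizes only, and RFC1 with library sizes only. TIPIN was called with no filter on low counts as well. Scaling by library sizes only moved the median difference of all genes by 0.35. It also raised the genes called above 0 from 1207 to 2455. Of the 45 calls, those of GMNN, POLA1 and CDC7 were lost in most fits with a library left out. The calls of ORC3, TOPBP1 and RPA3 were lost in fewer such fits.

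The lines were then compared under each agent, using the same libraries as the comparisons above, so these values are set beside them and are not separate evidence. Under 5-FU the members were mostly lower in SW620 than in HCT116. Of the 54, 1 was called higher and 40 lower in SW620, where 26.5% of all genes were called higher and 28.2% lower, with a median log2 fold change of -1.03 against -0.04 over all genes. The 5 largest were GINS2 (-3.31 ± 0.213, adjusted p = 5.64e-08), MCM5 (-2.83 ± 0.214, adjusted p = 2.35e-07), GINS4 (-2.79 ± 0.208, adjusted p = 2.03e-07), CHAF1B (-2.29 ± 0.194, adjusted p = 6.55e-07) and LIG1 (-2.15 ± 0.210, adjusted p = 2.36e-06). ORC6 was the member called higher (0.45 ± 0.155, adjusted p = 0.0263). That call was lost when any 1 of the 4 5-FU libraries was left out (adjusted p = 0.0886 and 0.132 without HCT116 replicates 1 and 2, and 0.104 and 0.109 without those of SW620), with library sizes only (0.438) and with no filter (0.0579).

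Under AFZC the members were more often higher than lower in SW620. There 31 members were called higher and 3 lower than in HCT116, where 25.1% and 24.2% of all genes were called, and the median was 0.57 against -0.01 over all genes. The share called higher, 31 of 54, was thus above that of the table, while 20 members were not called. Not all of the 31 calls were firm: POLD1, WDHD1 and CHAF1A lost theirs with DESeq2 and with the replicate block. Fewer members were called higher in every fit with a library left out. The largest were POLD3, an accessory subunit of polymerase delta (2.17 ± 0.179, adjusted p = 6.54e-07), POLA2 (1.95 ± 0.265, adjusted p = 5.24e-05), ORC6 (1.84 ± 0.157, adjusted p = 9.12e-07), CDC45 (1.62 ± 0.251, adjusted p = 0.000156) and MCM8 (1.60 ± 0.159, adjusted p = 3.5e-06). The 3 lower were ORC5 (-0.94 ± 0.245, adjusted p = 0.00679), PCNA (-0.85 ± 0.165, adjusted p = 0.000918) and CDT1 (-0.43 ± 0.147, adjusted p = 0.0265). ORC5 lost its call without SW620 AFZC replicate 1 (adjusted p = 0.0568), and CDT1 without HCT116 AFZC replicate 2 (0.105), without SW620 AFZC replicate 2 (0.162), with library sizes only (0.0544) and with only the 4 AFZC libraries (0.0654).

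**Figure D5:**
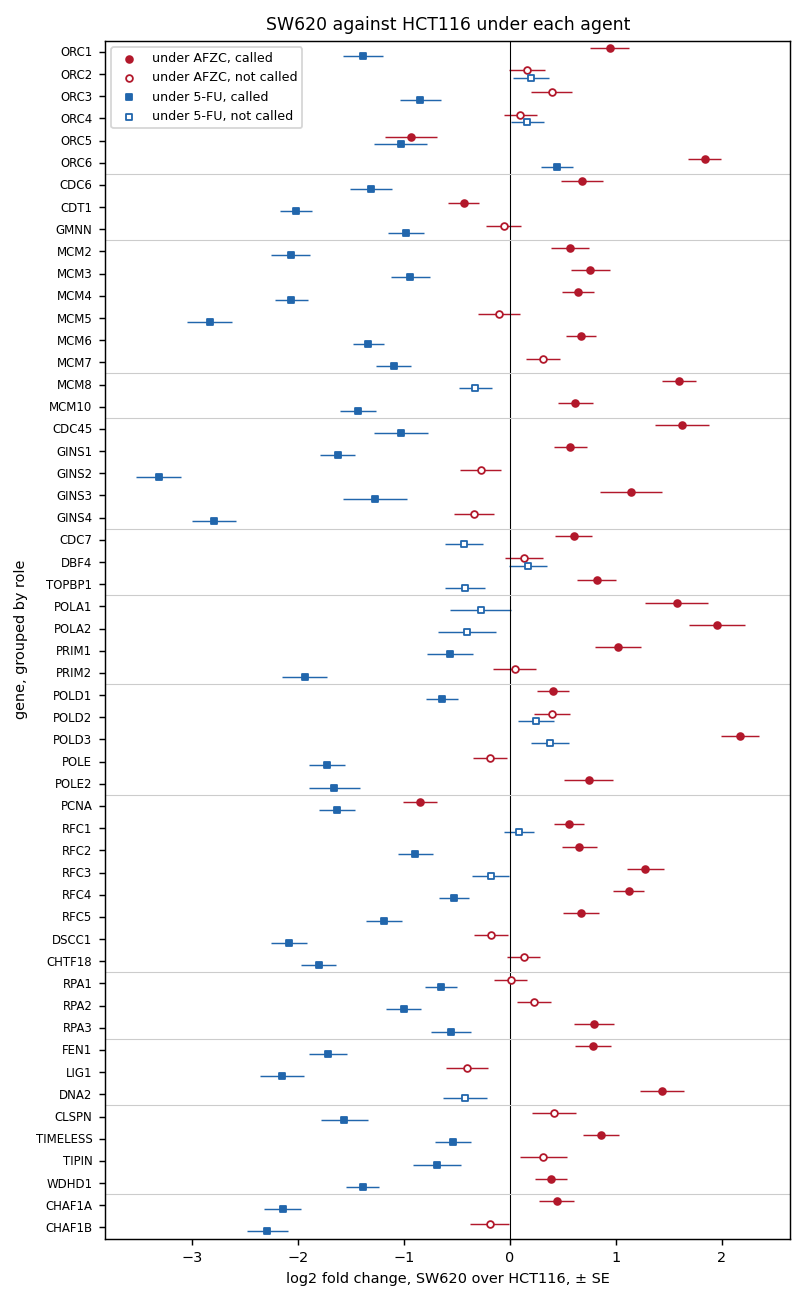
Log2 fold change of SW620 over HCT116 with its standard error for 54 genes, under AFZC (red circles) and under 5-FU (blue squares), filled where called. Most blue squares lie left of 0 and most red circles right of it, and ORC5, CDT1 and PCNA are called and left of 0 under both agents.

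A further 56 genes of DNA replication, listed by function and holding none of the 54, were read from the same fit. In SW620 33 of them were called higher under AFZC and 1 lower, where 11.6% and 6.95% of all genes were, with a median log2 fold change of 0.74, below that of the 54. The S phase cyclins and E2F genes had 8 of 9 called, among them E2F8, a repressor of the E2F family, with 30.4 and 20.8 CPM under AFZC against 1.79 and 1.72 CPM under 5-FU (3.87 ± 0.323, adjusted p = 1.05e-05). CCNE2, cyclin E2, had 5.88 and 8.79 CPM against 1.07 and 0.816 CPM (2.96 ± 0.352, adjusted p = 0.000145). RNASEH2A, the catalytic subunit of the RNase H2 that removes RNA from DNA, had few counts: the pooled libraries held 96 counts under AFZC and 2 under 5-FU, a ratio of 41.8 with a 95% exact binomial interval of 11.3 to 350 for counting error. The gene of the 56 called lower was TOP2B, the topoisomerase II form also found in cells that do not divide, with 138 and 131 CPM against 217 and 196 CPM (-0.62 ± 0.170, adjusted p = 0.0244). Its call was lost without either library of either SW620 group (adjusted p = 0.0628 to 0.144) and with library sizes only (0.355).

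In HCT116 5 of the 56 were called higher and 0 lower by edgeR, against 5.87% and 3.74% of all genes, so the share called higher lay near that of the table. The median was 0.10; 3 were lower at an unadjusted p under 0.05 and 0 with DESeq2. E2F7, another atypical E2F repressor, had 109 and 87.1 CPM under AFZC against 24.4 and 33.2 CPM under 5-FU (1.77 ± 0.207, adjusted p = 0.000396), far apart. E2F8 had 28.1 and 17.2 CPM against 7.49 and 9.97 CPM (1.38 ± 0.282, adjusted p = 0.00974). DBF4B, another activator of CDC7, had 26.6 and 38.1 CPM against 16.6 and 17.3 CPM (0.93 ± 0.202, adjusted p = 0.0128). The E2F8 call was lost without HCT116 5-FU replicate 1 (adjusted p = 0.152), 5-FU replicate 2 (0.0528) or AFZC replicate 1 (0.0959), and that of DBF4B without 5-FU replicate 1 (0.144), 5-FU replicate 2 (0.0956) or AFZC replicate 2 (0.0940).

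Other cell cycle and cell type markers moved beside the replication genes in SW620. The summed level of 9 genes of G2 phase and mitosis was 2415 and 1694 CPM under AFZC against 659 and 534 CPM under 5-FU. Of the 9, 6 were called higher, where 11.6% of all genes were. TOP2A, 1 of the 9, is also among the 56, and without it the sum was 1661 and 1200 CPM against 426 and 336 CPM. In HCT116 the summed level of all 9 was 1054 and 1781 CPM against 809.7 and 1095 CPM, which overlapped. There 0 of the 9 were called by edgeR, where 5.87% of all genes were called higher and 3.74% lower. At an unadjusted p under 0.05, 3 were higher, and 2 were called higher with DESeq2. The summed level of 8 colorectal epithelial markers ran the other way in SW620, 5464 and 5016 CPM under AFZC against 15200 and 16530 CPM under 5-FU, and was 7946 and 4887 CPM against 4328 and 3501 CPM in HCT116. In HCT116 2 of the 8 were called higher, 5 were not called and 1 was not tested, where 5.87% of all genes were called higher. The fall in SW620 was carried by the keratins KRT8, KRT18 and KRT19, called lower, which summed to 4037 and 3472 CPM against 13400 and 14480 CPM. The other 5 markers summed to 1427 and 1544 CPM against 1792 and 2054 CPM, and the 4 tested, EPCAM, CDH1, VIL1 and CDX2, had log2 fold changes of -0.39, -0.27, -0.61 and -0.20 that edgeR did not call. A list of 6 leukocyte markers summed to 42.3 and 16.4 CPM against 5.75 and 8.01 CPM in SW620, nearly all of it LYZ, and to under 1 CPM in every HCT116 library. The 3 endothelial markers summed to 18.3 and 13.6 CPM under AFZC against 5.51 and 5.26 CPM in SW620, where VWF was called higher (log2 fold change 1.95 ± 0.291, adjusted p = 0.000746), and to 5.22 and 5.16 CPM against 3.14 and 3.93 CPM in HCT116. The 6 fibroblast markers summed to 81.5 and 49.3 CPM against 52.8 and 57.3 CPM in SW620, which overlapped, although PDGFRB was called higher with 9.91 and 9.15 CPM against 2.10 and 2.30 CPM. In HCT116 the fibroblast sum was 59.7 and 53.1 CPM against 44.6 and 45.6 CPM, and PDGFRB was called higher there too, with 1.19 and 1.05 CPM against 0.461 and 0.449 CPM. Erythroid markers summed to between 0.663 and 2.02 CPM over the 8 libraries. The part of these shifts in the replication results was not tested.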

How the data were processed

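The authors deposited raw counts of reads per gene symbol for all 8 libraries as 1 matrix of 57169 rows, from poly(A)-selected libraries that did not keep the strand, per the labels' protocols. Per the submitters' processing notes the build was GRCh38, with the aligners HISAT2 and STAR, the counter featureCounts, the trimmers cutadapt and Trimmomatic, FastQC, edgeR and DESeq2. Which aligner was used and how mates were counted was not given in those sources. In each library the number of genes with 2 counts was 1.68 to 1.84 times that of genes with 1, so counting intervals, which treat counts as independent, are too narrow and cover counting error only.

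The fit used edgeR 4.0.16 in R 4.3.3 with limma 3.58.1 and version 1.17.8 of data.table: filterByExpr with a minimum count of 10 (21378 genes), TMM factors, 4 group means over 8 libraries, robust quasi-likelihood tests with 4 residual degrees of freedom, two-sided, Benjamini-Hochberg over all genes tested, threshold 0.05. The SE is the size of the log2 fold change over the square root of F. At the common dispersion the coefficient of variation was 19.9%. No library was a copy of another (chi-square over degrees of freedom within groups 21.7 to 55.9). DESeq2 1.42.0, other scalings, no filter, other dispersion and sample choices, a replicate block and leaving out each library were alternatives. Tables and figures used Python 3.11.15, pandas 2.3.3, scipy 1.17.1 and matplotlib 3.10.9. Promoter sequences are from RefSeq (GRCh38.p14).

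The members and lists were chosen with earlier results of these data known. Named with values were 24 members set by role, every member called in HCT116, every member not called and the largest change of each role in SW620, the 5 largest changes in each direction of the other comparisons, and the 3 largest called changes per direction among 56 other replication genes; ORC3, RFC1, TOPBP1, MCM3, DSCC1 in HCT116, MCM7 and TIPIN in SW620, the single cell type markers and members listed by symbol alone were added once their values were known. A planned check of the lines is not reported here.

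The code was tested on simulated data with 200 changed genes among 20688 in the SW620 comparison. Among genes at or above the level of the lowest member, 72.1% of those changed 2-fold and 100% of those changed 4-fold were recovered, and below it 3.64% and 32.7%. Of unchanged genes, 4.78% had an unadjusted p under 0.05 and 13 were called. The first pass mark, set on all changed genes together, was missed for the 2-fold changes; it was replaced by these measures after that result was seen.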

Additional observations from a re-analysis of the deposited data

Results flagged for a closer look

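For 45 of the 54 replication genes the AFZC effect was called larger in SW620 than in HCT116, where 5.65% of all genes tested were. This difference between the lines was tested as an interaction in the fit over all 8 libraries. The largest differences, on the log2 scale, were 3.04 for GINS2, 2.73 for MCM5, 2.71 for MCM4, 2.65 for CDC45 and 2.64 for MCM2. Each of these 5 had both AFZC libraries above both 5-FU libraries in SW620, as had 31.5% of all genes tested. In HCT116 GINS2, MCM5, MCM4 and MCM2 had both AFZC libraries below both 5-FU libraries, and CDC45 overlapped. Of all genes, 27.4% separated downward in HCT116. None of the 5 was called in HCT116 by edgeR on all libraries. They were picked for the size of the difference, which favours such separations, so the separations are not separate evidence. Groups of 2 libraries are too small for a check of single libraries that stand apart.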

How the results depend on the processing

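The 49 calls in SW620 were the same in number under all 7 other settings, and 44 to 49 members were called with a library left out; PCNA was called in HCT116 in each of these fits. Scaling by library sizes only moved the median of all genes by 0.38 in SW620, by 0.35 for the difference of the effects and by -0.30 between the lines under 5-FU, and the members' medians by about as much, to 2.06, 2.11 and -1.32. The small counts of HCT116 moved most. Members called higher there were 2 with DESeq2 and 2 with library sizes only, and members called lower were 3 with DESeq2, 1 with library sizes only, 5 with no filter on low counts, 1 with the replicate block and 0 to 4 with a library left out. The median in HCT116 was -0.03 without 5-FU replicate 2 and -0.095 without AFZC replicate 2, over a range of -0.095 to 0.049, so its sign is not settled; the cause was not tested. With a library left out, the median difference of the effects was 1.62 to 1.92, the members higher in SW620 under 5-FU 0 to 1 and their median -1.21 to -0.92, and the median between the lines under AFZC 0.46 to 0.57. ORC6, the member called higher between the lines under 5-FU, dropped to 0 calls with library sizes only and with no filter. The E2F letters were in 32.6% of the members' windows when bases before the start alone were searched (5.92% of all windows), and in 37.0% (2.27%) as TTTGGCGC or TTTCCCGC. With the replicate block, 49 members were higher in SW620, 46 in the difference of the effects, and 39 were lower between the lines under 5-FU. Same-numbered libraries did not deviate together (correlations -0.10 to 0.10), so no shared shift by number was seen. With 1 deviation per group, these values cannot show whether the libraries were prepared in pairs. Fits with a library left out assume that the lone library of its group varies like the others. In the simulation 72.1% of 2-fold changes at the members' levels were recovered. That simulation changed 200 of 20688 genes, while 2482 and 1486 of 21378 were called higher and lower in SW620. The share recovered may therefore differ in the real data. Changes under 2-fold may be missed with 2 libraries per group, although not all of the 49 calls in SW620 reached a doubling (41 did).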
